A study of Anas platyrhynchos with 8 samples.

Results

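Glucocorticoids, chiefly corticosterone in birds, enter cells and bind the glucocorticoid receptor, which then moves to the nucleus and switches target genes on or off. In fat tissue of mammals this signalling drives fat cell differentiation and also the release of fatty acids. Among the genes it induces in mammals are ZBTB16, FKBP5, TSC22D3, KLF9 and ERRFI1, and the level of active hormone inside a cell depends on the enzyme HSD11B1. These 5 target genes, the receptor gene NR3C1 and HSD11B1 are described here, 7 of 13213 gene symbols in the deposited mRNA table. They were found by their symbol, in any case of letters, and held 21 of its 48592 transcript rows.

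Abdominal fat of ducks (Anas platyrhynchos) from an F2 population, 42 days old, was sequenced in 4 libraries from birds with high abdominal fat ratios (HF) and 4 from birds with low ratios (LF). All birds shared the same housing with free access to food and water, per the labels. No source used here says whether a library is 1 bird or a pool, so the spread between libraries may be partly technical. The sources used here state neither hormone levels nor the birds' sex nor the hour of sampling.

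The set was put together with HF against LF results of these data known, so all 7 genes are treated as chosen by their fold changes and tests in that contrast. Their contrast is therefore a description that supports nothing by itself, and no p-value is printed for them. Where the text counts how many of them were past a threshold, the share of all genes or transcripts past it stands beside the count. P-values are given for other genes of the pathway, but their lists were also drawn up with earlier results of these data known. Those p-values are thus a description too.

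The libraries held from 12696240 to 30836178 estimated counts. All 9 listed adipocyte markers were present, and their summed level was 31291 to 46266 CPM (counts scaled to library size, with TMM, edgeR's normalization) in HF and 45414 to 88093 in LF. PNPLA2, the first lipase of triglyceride breakdown, made up much of this sum, and without it the sums were 18067 to 22398 in HF and 19458 to 25509 in LF. Of 9 genes of steroid-making tissue (adrenal or gonad), 6 had rows, and CYP11A1 and MC2R were at 0 in all libraries. The summed level was 2.44 to 3.94 CPM in HF and 3.44 to 5.47 in LF. Nearly all of that sum was STAR, at 2.44 to 3.94 CPM in HF and 3.44 to 5.31 in LF. Transcripts described as W-linked or Wpkci, from the female sex chromosome, held at least 1818 counts in each HF library and 2861 in LF-4, but at most 8 in LF-1, LF-2 and LF-3. HF against LF thus cannot be told apart from that difference. LF-4 is the only LF library that shares these transcripts with HF, and a single library cannot separate the 2. Its values are given beside the main results as a description.

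ZBTB16 encodes PLZF, a zinc finger protein with a BTB domain that represses transcription and is among the strongest glucocorticoid-induced genes of many human cell types. Its rows summed to 7.55, 8.55, 2.29 and 5.20 CPM in HF-1 to HF-4, against 39.6, 69.4, 35.4 and 92.6 CPM in LF-1 to LF-4. The groups did not overlap: every HF library was below every LF library, and the lowest LF library held more than the highest HF library by a wide margin. The mean was 5.90 ± 2.78 CPM over the HF libraries and 59.2 ± 26.9 CPM over the LF libraries (SD, n = 4 each), a log2 fold change of -3.34 ± 0.45 (SE).

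Only 4 of 10511 genes tested, ZBTB16 included, had a log2 fold change this low. ZBTB16 was the 1 gene of the 7 past an edgeR adjusted p of 0.05, where 0.647% of all genes tested were. Because ZBTB16 was chosen by this contrast, nothing is read from that count. When each library was left out in turn it was past the threshold 6 of 8 times, and not without HF-1 or without HF-4. Its log2 fold change then ran from -3.56 to -3.04. Over all genes, such fits called from 2 of 10599 (without HF-1) to 92 of 10615 (without LF-4), with 6 of 10642 without HF-4. LF-4, the LF library that shares W-described transcripts with HF, had the highest value of all, 15.7 times the HF mean. Without LF-4 the log2 fold change was -3.04.

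FKBP5 is a co-chaperone that binds the receptor complex with HSP90 and lowers its affinity for hormone, and its induction closes a short feedback loop. It was at 3.57, 2.85, 4.31 and 5.75 CPM in HF-1 to HF-4, against 10.7, 17.9, 13.5 and 46.6 CPM in LF-1 to LF-4. Here too the groups did not overlap, and LF-4 stood well above the other LF libraries, at 3.32 times their mean. The log2 fold change was -2.42 ± 0.47 over all libraries and -1.76 without LF-4. ZBTB16 and FKBP5 were the 2 of the 7 genes without overlap between the groups, where 9.19% of all genes tested had none. FKBP5 was past the threshold without LF-4 and not when any other single library was left out. The fit without LF-4 also called the most genes in all, 92 of 10615. The other such fits called from 2 of 10599 (without HF-1) to 76 of 10616 (without HF-2).

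TSC22D3 encodes GILZ, a leucine zipper protein that carries part of the anti-inflammatory action of glucocorticoids in mammals. It was at 91.5, 121, 42.4 and 68.4 CPM in HF-1 to HF-4, against 121, 165, 118 and 130 CPM in LF-1 to LF-4. The groups touched, since HF-2 lay within the range of LF, and HF-3 was the lowest of all. The log2 fold change was -0.73 ± 0.28, and LF-4 was close to the mean of the other LF libraries.

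KLF9, a zinc finger transcription factor, is induced by both glucocorticoids and thyroid hormone. Its levels were 15.3, 12.3, 9.88 and 10.3 CPM in HF-1 to HF-4, against 14.9, 23.1, 15.5 and 34.1 CPM in LF-1 to LF-4. LF-2 and LF-4 stood clear of all HF libraries and LF-3 lay just above the highest of them, HF-1, while LF-1 lay below HF-1. The log2 fold change was -0.87 ± 0.28, and -0.58 without LF-4. KLF9 lies on chromosome Z of the duck assembly IASCAAS_PekinDuck_T2T, whose 468 tested genes had a median log2 fold change of -0.23, against 0.0045 for the 8879 tested genes placed elsewhere. LF-4, with W-described transcripts like the HF libraries, had the highest KLF9 value of the 8, 2.85 times the HF mean. That is a single library, and the part of chromosome Z in the KLF9 difference was not tested.

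ERRFI1 (MIG6), an inhibitor of the EGF receptor, did not separate the groups. Its values ran from 14.0 to 17.0 CPM in HF and from 14.3 to 17.2 CPM in LF. The log2 fold change was 0.03 ± 0.14, an SE that leaves room for small differences in either direction.

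**Figure D1:**
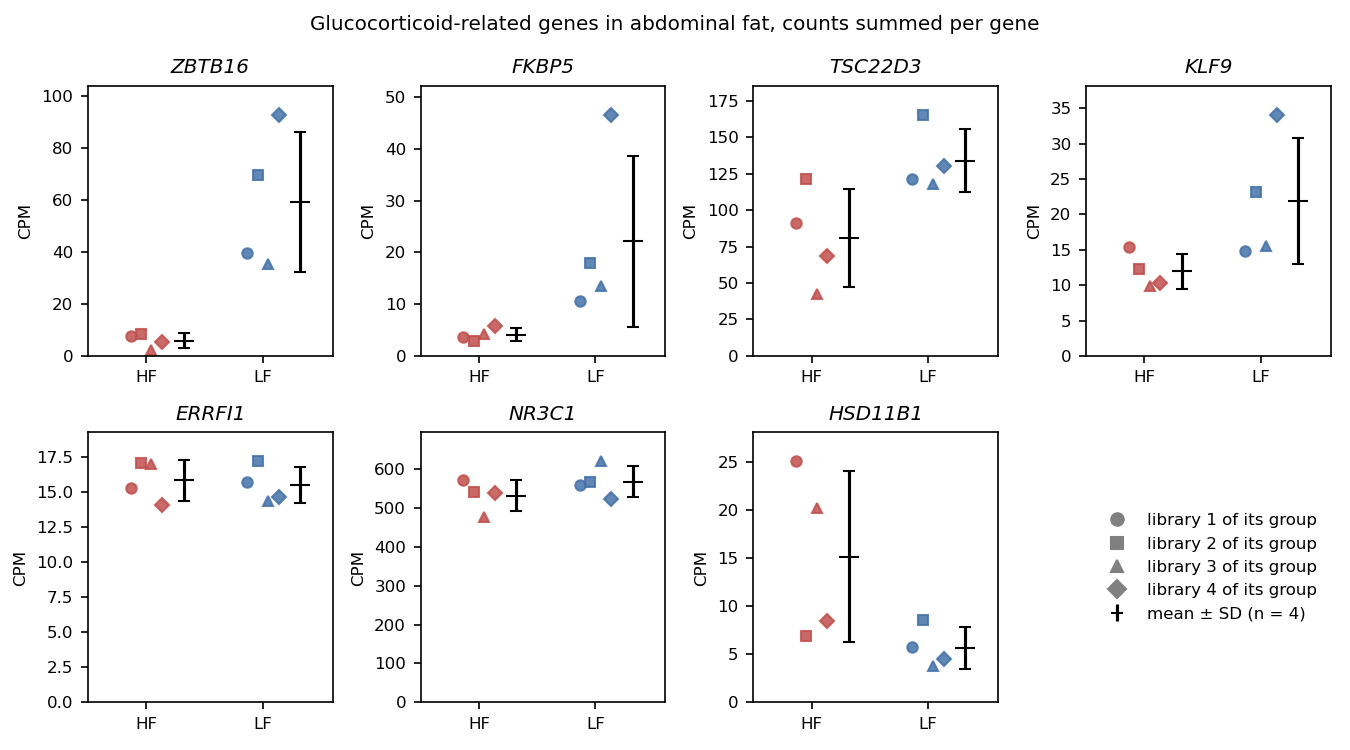
Levels of the 7 genes in CPM (vertical axes, from 0), summed per gene, in HF libraries (red, left) and LF libraries (blue, right), with mean ± SD of 4 libraries in black. ZBTB16 (at most 8.55 CPM in HF, at least 35.4 in LF) and FKBP5 do not overlap between the groups, ERRFI1 and NR3C1 overlap between them, and HSD11B1 is higher in HF-1 and HF-3 than in any LF library.

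NR3C1, the glucocorticoid receptor itself, was the most abundant of the 7 genes per length and did not separate the groups either. It was at 570, 540, 476 and 538 CPM in HF-1 to HF-4, against 559, 567, 619 and 523 CPM in LF-1 to LF-4. The ranges overlapped, with LF-4 inside the range of HF, and the fit gave a log2 fold change of -0.09 ± 0.12. Its libraries were the most alike of the 7 genes, with a standard deviation within groups of 0.10 on the log2 scale, against 0.71 for ZBTB16 and 0.70 for FKBP5.

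HSD11B1 encodes the enzyme that regenerates active from inactive glucocorticoid in fat and liver. Its mean was higher in HF, at 25.1, 6.94, 20.3 and 8.47 CPM in HF-1 to HF-4, against 5.79, 8.61, 3.76 and 4.50 CPM in LF-1 to LF-4. HF-1 and HF-3 were above every LF library, and HF-2 and HF-4 lay within the range of LF. The log2 fold change was 1.42 ± 0.44, and 1.32 without LF-4. HSD11B2, the enzyme that inactivates glucocorticoid, did not reach the count filter, with 66 estimated counts in all 8 libraries together.

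Among the transcript rows, the 3 RefSeq models of ZBTB16 with more than 2 counts all had lower means in HF. XM_027444316.1, which held 52.6% of the gene's counts over all libraries, was at 1.23, 0, 0.37 and 0.54 FPKM (fragments scaled to transcript length and library size, as deposited) in HF-1 to HF-4, against 4.40, 10.9, 4.28 and 13.4 FPKM in LF-1 to LF-4. XM_027444318.1 was at 0, 1.91, 0.20 and 1.25 FPKM in HF-1 to HF-4, against 8.43, 12.9, 9.54 and 7.93 FPKM in LF-1 to LF-4. Neither model overlapped between the groups. XM_027444315.1 was at 0 to 0.33 FPKM in HF, against 6.26 FPKM in LF-4, 1.31 FPKM in LF-1 and a listed 0 in LF-2 and LF-3, so its groups overlapped.

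An assembled ZBTB16 model, TCONS_00063497, ran against the others. It was listed at 1.42 FPKM in HF-1 and 1.62 FPKM in HF-2, and at 0 in HF-3, HF-4 and all 4 LF libraries. It made up 53.6% of the gene's 2.65 FPKM in HF-1 and 41.5% of its 3.90 FPKM in HF-2. With the RefSeq models alone, ZBTB16 averaged 1.54 ± 0.71 FPKM in HF, against 19.8 ± 6.92 FPKM in LF (SD, n = 4 each). Estimated counts divide reads among overlapping models, so an exact 0 for a single model may be a failed estimate, and the sum per gene is the firmer value.

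FKBP5 had 2 models, and both were lower in HF. XM_027444695.1, isoform X1 in the deposited description, was at 1.20, 0.99, 1.23 and 1.81 FPKM in HF-1 to HF-4, against 2.65, 5.39, 3.98 and 12.2 FPKM in LF-1 to LF-4. XM_027444696.1, isoform X2, was at 0.13 to 0.41 FPKM in HF, against 1.18 to 4.73 FPKM in LF. TSC22D3 had 2 models, of which 1 held 94.8% of its counts, and of the 2 ERRFI1 models 1 held 81.1%. KLF9 was represented by a single assembled model, TCONS_00067113, described after a falcon protein.

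HSD11B1 is the least certain of the 7, since its 5 rows include at least 2 different loci. By accession, 2 of the rows matched separate reference loci (LOC101803228 and LOC101804020), and each of the 5 descriptions reads "1-like" or "partial". XM_021270648.2, the most counted row, was at 8.78, 1.67, 8.60 and 0.50 FPKM in HF-1 to HF-4, against 1.80, 1.13, 0.09 and 0.10 FPKM in LF-1 to LF-4. It was the largest row of the gene in HF-1, HF-3 and LF-1, and was low in HF-4 and in LF-3 and LF-4. XM_005017169.4 had another pattern, with HF-3 its lowest HF library. It was at 1.74, 2.53, 0.72 and 2.42 FPKM in HF-1 to HF-4, against 0.60, 1.40, 0.74 and 0.35 FPKM in LF-1 to LF-4. The assembled model TCONS_00064076 overlapped fully, at 1.07 to 4.23 FPKM in HF and 1.65 to 3.79 FPKM in LF.

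NR3C1 reads fell mainly on XM_005022472.4, isoform X1, at 60.3 to 76.0 FPKM in HF and 67.6 to 84.4 FPKM in LF. XM_027468464.1, isoform X2, was at 21.6 to 35.2 FPKM in HF and 19.4 to 27.9 FPKM in LF. Of the 21 rows 16 passed the count filter. By edgeR, none of these was past an adjusted p of 0.05, where 0.0168% of all transcripts tested were, and 6 of the 16 had an unadjusted p under 0.05, against 7.42% of all transcripts tested. No other tool was run on transcripts. The groups did not overlap for 4 of the 16, the 2 FKBP5 models and the first 2 ZBTB16 models above, where 6.56% of all transcripts tested had no overlap. These rows carry the same contrast by which the genes were chosen.

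**Figure D2:**
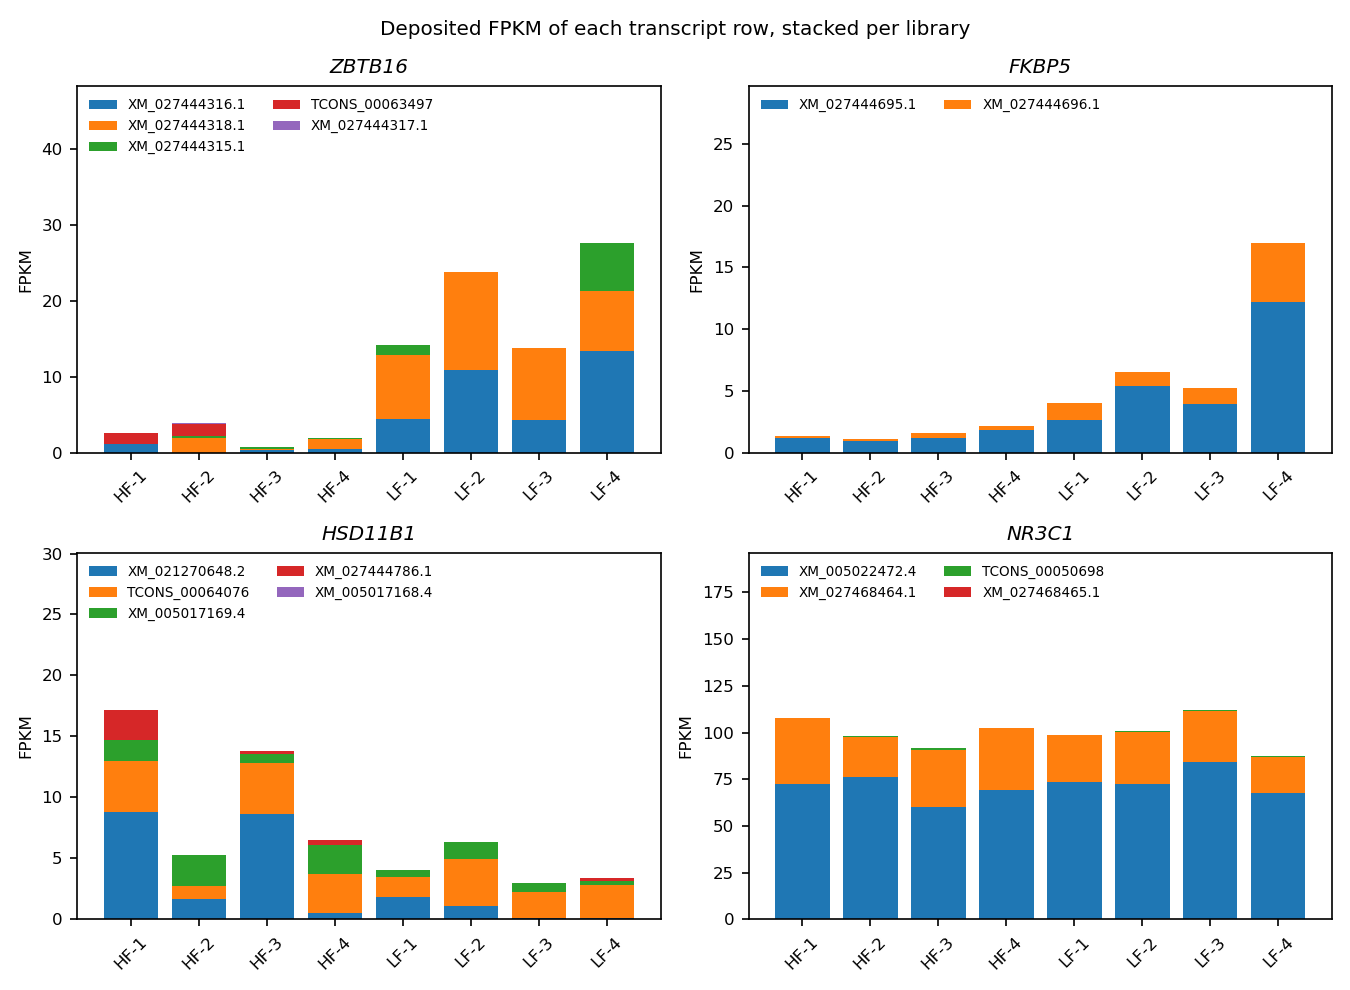
Deposited FPKM of each transcript row (colours) of ZBTB16, FKBP5, HSD11B1 and NR3C1, stacked per library (horizontal axis), HF libraries on the left. In ZBTB16 the RefSeq models are low in every HF library and the assembled model TCONS_00063497 shows only in HF-1 and HF-2, while HSD11B1 is dominated by XM_021270648.2 in HF-1 and HF-3 (8.78 and 8.60 FPKM).

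Per length, in FPKM summed per gene, the order of the 7 genes differed between the groups. In HF it was NR3C1 (99.96 ± 6.97), TSC22D3 (60.7 ± 26.2), HSD11B1 (10.7 ± 5.74), ERRFI1 (5.13 ± 0.46), ZBTB16 (2.30 ± 1.33), KLF9 (1.89 ± 0.38) and FKBP5 (1.57 ± 0.46). In LF it was NR3C1 (99.8 ± 10.04), TSC22D3 (97.5 ± 14.4), ZBTB16 (19.8 ± 6.92), FKBP5 (8.19 ± 5.93), ERRFI1 (4.87 ± 0.37), HSD11B1 (4.19 ± 1.48) and KLF9 (3.34 ± 1.29). ZBTB16 thus stood at place 5 in HF and place 3 in LF. In HF the ranges overlapped between NR3C1 and TSC22D3, between HSD11B1 and ERRFI1, and among ZBTB16, KLF9 and FKBP5. In LF they overlapped between NR3C1 and TSC22D3, between ZBTB16 and FKBP5, and among FKBP5, ERRFI1, HSD11B1 and KLF9.

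Within groups, ZBTB16, TSC22D3 and KLF9 tended to be high and low in the same libraries. In HF the order from high to low was HF-2, HF-1, HF-4, HF-3 for both ZBTB16 and TSC22D3, and KLF9 differed from it by having HF-1 before HF-2. FKBP5 ran largely the other way in HF, with HF-4 highest and HF-2 lowest. In LF, LF-2 and LF-4 held the highest levels of ZBTB16, FKBP5, TSC22D3 and KLF9 alike. With 4 libraries in a group these orders are a description.

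**Figure D3:**
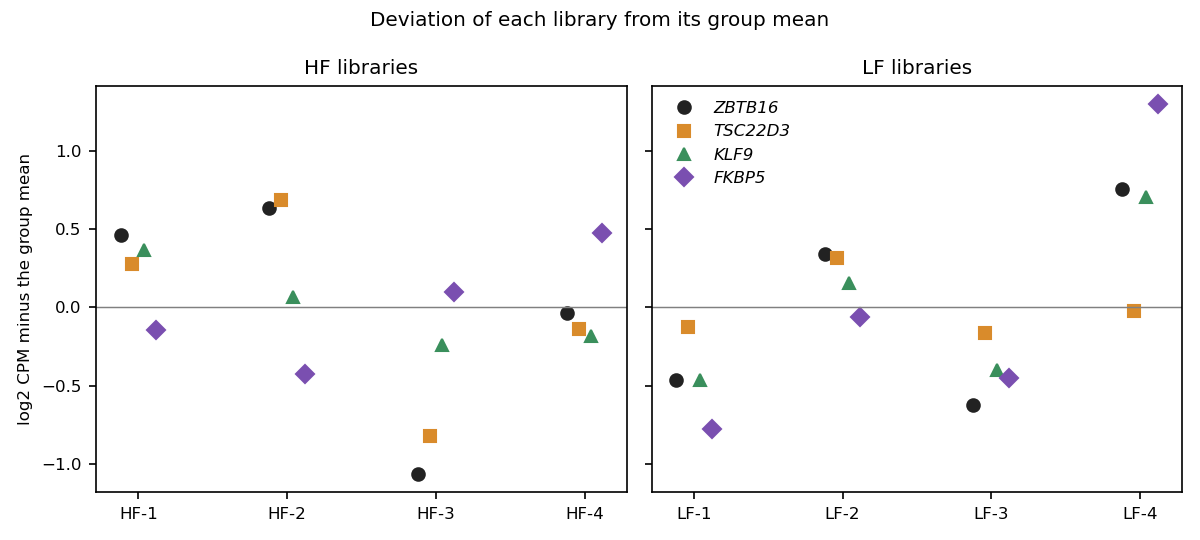
Log2(CPM + 0.5) of ZBTB16, TSC22D3, KLF9 and FKBP5 minus the mean of the library's own group (vertical axis), for HF libraries (left panel) and LF libraries (right panel). HF-3 is lowest for ZBTB16 (-1.06) and TSC22D3 (-0.82), where FKBP5 is at 0.097, and LF-4 is highest for ZBTB16, KLF9 and FKBP5.

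Across all 8 libraries, the genes whose log2(CPM + 0.5) followed ZBTB16 most closely, of 8429 genes with a mean of at least 5 CPM, were RBBP7 (Pearson r = 0.979), PDK4 (0.975), HLF (0.972), PROKR1 (0.972) and NR13 (0.971). PDK4 inhibits pyruvate dehydrogenase, HLF is a bZIP factor of the clock-controlled PAR family, and PROKR1 is a prokineticin receptor. The most opposed were BCL2A1 (-0.981), an anti-apoptotic protein, MPEG1 (-0.973), a pore-forming protein of macrophages, and CLCN7 (-0.973), a lysosomal chloride transporter. These r values include the step between HF and LF, share its libraries and carry no test. KLF9 stood at 0.878, FKBP5 at 0.877 and TSC22D3 at 0.862, NR3C1 at 0.486, ERRFI1 at -0.148 and HSD11B1 at -0.698.

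After subtracting the mean of each group, r with ZBTB16 was 0.826 for TSC22D3, 0.824 for KLF9 and 0.383 for FKBP5. It was 0.166 for NR3C1, -0.020 for ERRFI1 and -0.157 for HSD11B1. Ranked by this r among 8429 genes, TSC22D3 stood at place 83, KLF9 at 86 and FKBP5 at 1748. The closest genes were then MSMB (0.965), CUL4A (0.960), a ubiquitin ligase scaffold, MYSM1 (0.953), a histone deubiquitinase, PM20D2 (0.948) and MOCS1 (0.945), of molybdenum cofactor synthesis. Of those, none was among the 5 closest before the subtraction.

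Beyond the 7 genes, 63 symbols known as glucocorticoid receptor targets in mammals were listed, of which 47 had rows and 42 were tested. The list, too, was drawn up with earlier results known. A share above that of all genes can thus come from the choice, and supports nothing by itself. In HF, PDK4 and CRISPLD2 fell and SCNN1A rose, which makes 3 of 42 (7.14%) past an edgeR adjusted p of 0.05, against 0.647% of all genes tested. Of the 42, 29 had a negative log2 fold change and the median was -0.25, while 49.8% of all genes tested were negative, with a median of 0.0012. An unadjusted p under 0.05 was reached by 17, of which 12 were lower in HF, a share of 40.5% of the list, against 15% of all genes tested.

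PDK4, the pyruvate dehydrogenase kinase that spares glucose in fasting, was at 360, 463, 296 and 323 CPM in HF-1 to HF-4, against 1053, 999, 807 and 1121 CPM in LF-1 to LF-4. The groups lay far apart, with a log2 fold change of -1.46 ± 0.18 (edgeR adjusted p = 0.0137). Its libraries had the same order as those of ZBTB16 within HF and a different order within LF, where LF-1 was above LF-2. Its call was lost when HF-1 was left out (edgeR adjusted p = 0.0623) and when HF-4 was (edgeR adjusted p = 0.0651). Few genes were called in all by those fits, 2 of 10599 without HF-1 and 6 of 10642 without HF-4.

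CRISPLD2, a secreted protein induced by glucocorticoids in human airway muscle, averaged 30.6 ± 5.44 CPM over the HF libraries, against 73.6 ± 21.7 CPM over LF (SD, n = 4 each), a log2 fold change of -1.27 ± 0.22 (edgeR adjusted p = 0.0419). With 1 library left out it passed 0 of 8 times, with edgeR adjusted p from 0.0562 to 0.144. Those 8 fits called from 2 of 10599 genes (without HF-1) to 92 of 10615 (without LF-4) in all. SCNN1A, the sodium channel subunit that glucocorticoids and aldosterone induce in mammalian epithelia, went the other way, at 7.82 to 17.0 CPM in HF and 0.437 to 0.835 CPM in LF. Its log2 fold change was 4.47 ± 0.35 (edgeR adjusted p = 0.00228), and it passed all 8 times.

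Several well-known targets did not pass. CEBPD, a factor of early fat cell differentiation, had 4.14 ± 1.49 CPM in HF, against 10.1 ± 2.57 CPM in LF, without overlap (edgeR adjusted p = 0.0893). RGS2, a regulator of G protein signalling, had 56.6 ± 19.96 CPM in HF, against 139 ± 66.9 CPM in LF, also without overlap (edgeR adjusted p = 0.136). NFKBIA, the inhibitor of NF-kappaB, had a log2 fold change of -0.89 ± 0.27, the phosphatase gene DUSP1 of -0.71 ± 0.30, the kinase gene SGK1 of -0.61 ± 0.28 and the clock gene PER2 of -0.41 ± 0.21. Other targets that did not pass had higher means in HF. STOM, an integral membrane protein of red cells and other cells, had 40.3 ± 0.77 CPM in HF, against 24.2 ± 9.38 CPM in LF, without overlap (edgeR adjusted p = 0.206). The transcription factor gene TFCP2L1 had a log2 fold change of 1.99 ± 0.70 and G6PC, which encodes glucose-6-phosphatase, one of 1.66 ± 0.65. Smaller log2 fold changes were those of KLF15 (-0.17 ± 0.19), FOXO1 (-0.049 ± 0.16) and IRS2 (0.11 ± 0.16), which did not pass either. All of these targets were named after their values were seen. In all, 9 of the 42 had no overlap, against 966 of all 10511 genes tested (9.19%). Of these, 7 (16.7% of the list) were lower in HF, against 4.64% of all genes tested, and STOM and SCNN1A were higher.

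Of the 3 calls, 1 was left when HF-1 was left out, 1 when HF-4 was and 2 when LF-4 was. Without LF-4 the list's median was -0.25. Over all genes, edgeR called 2 of 10599 without HF-1, 6 of 10642 without HF-4 and 92 of 10615 without LF-4. DESeq2 called 11 of the 42, 8 of them lower in HF, and these 11 include the 3 called by edgeR. It also called far more genes in all, 593 of 10477 tested, against 68 of 10511 by edgeR. Of 8 immediate early genes, 5 had rows, and their summed levels ran from 353 to 901 CPM in HF and from 597 to 796 CPM in LF. None of the 5 passed by edgeR, which called 68 of 10511 genes in all. Their log2 fold changes were positive for 0 of 5. The lymphocyte list, all 9 of 9 with rows, summed to 77.4 to 138 CPM in HF and 48.7 to 71.7 CPM in LF, the macrophage list, 9 of 10 with rows, to 721 to 1128 CPM in HF and 612 to 1299 CPM in LF, and the endothelial list, 6 of 6, to 3155 to 6506 CPM in HF and 5540 to 7716 CPM in LF. The liver list, 5 of 5, summed to 1409 to 4353 CPM in HF and 8743 to 12239 CPM in LF. Nearly all of that was APOA1, the main protein of HDL, which was lower in HF (log2 fold change -1.93 ± 0.34, edgeR adjusted p = 0.0419) and was the 1 called gene among the marker lists, while ALB, albumin, was at 0.092 to 26.8 CPM in HF and 0.186 to 32.1 CPM in LF. The smooth muscle list, 4 of 6 with rows, summed to 341 to 458 CPM in HF. In LF-1 to LF-4 it summed to 915, 787, 784 and 347 CPM, so the groups overlapped only through LF-4. Sums of skeletal muscle, erythroid and mesothelial markers overlapped between the groups. Among tested markers, log2 fold changes were positive for 6 of 6 lymphocyte, 8 of 9 macrophage, 1 of 6 endothelial and 1 of 4 smooth muscle genes. They were positive for 2 of 9 adipocyte, 3 of 3 erythroid, 0 of 3 skeletal muscle, 1 of 3 mesothelial and 0 of 3 liver genes. The part of all these markers in the levels given here was not tested, and in whole tissue fewer cells of a type and less RNA per cell cannot be told apart.

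**Figure D4:**
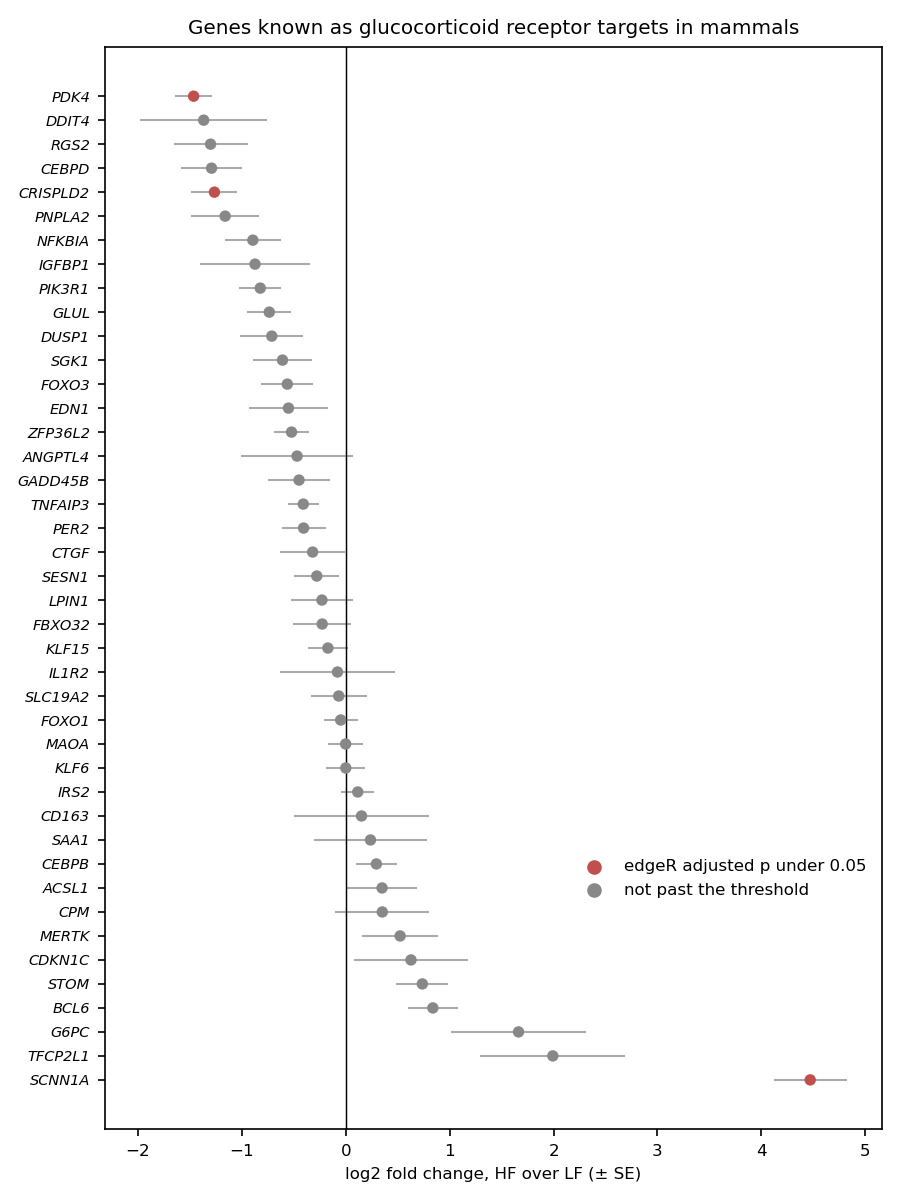
Log2 fold change of HF over LF with its SE (horizontal axis) for the 42 tested genes listed as glucocorticoid receptor targets in mammals, ordered from low to high. PDK4, CRISPLD2 and SCNN1A (red) are past an edgeR adjusted p of 0.05, and 29 of the 42 lie below 0.

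Of 32 tested chaperones, coregulators, steroid enzymes and the mineralocorticoid receptor, 0 passed by edgeR and 0 by DESeq2. Over all genes tested, edgeR called 0.647% and DESeq2 593 of 10477. With so small a share by edgeR, 0 calls in a list of this size say little. An unadjusted p under 0.05 was reached by 2 (6.25%), against 15% of all genes tested. Log2 fold changes were positive for 16 and negative for 16, with a median of 0.015. Those 2 were PPID, a cyclophilin of the HSP90 complex, at 332 ± 113 CPM in HF, against 230.5 ± 38.7 CPM in LF, and H6PD, which supplies HSD11B1 with NADPH, at 33.8 ± 3.999 CPM in HF, against 27.2 ± 2.58 CPM in LF (SD, n = 4 each). Their edgeR adjusted p was 0.332 for PPID and 0.314 for H6PD. NR3C2, the mineralocorticoid receptor, which binds corticosterone as well, had a log2 fold change of -0.01 ± 0.23, and FKBP4, the co-chaperone that FKBP5 competes with, one of -0.17 ± 0.23; both were named after their values were seen.

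Relatives of ZBTB16, FKBP5 and TSC22D3, partners of the ZBTB16 protein and genes of the EGF receptor axis did not pass by edgeR either. Of all genes tested, edgeR called 0.647%. Their lists are smaller still, so 0 calls say little. Of 29 tested genes of the ZBTB family and its relatives BCL6 and PATZ1, edgeR called 0. DESeq2, which called 593 of 10477 genes in all, called BCL6 alone. An unadjusted p under 0.05 was reached by 2 (6.90%), against 15% of all genes tested, and the median log2 fold change was -0.0058. BCL6, a repressor that shares the BTB domain with ZBTB16 and is itself on the target list, had 71.7 ± 22.0 CPM in HF, against 40.1 ± 9.58 CPM in LF (edgeR adjusted p = 0.150). ZBTB5, on chromosome Z, had 9.94 ± 2.78 CPM in HF, against 15.4 ± 4.42 CPM in LF (edgeR adjusted p = 0.289). Of 10 tested partners of the ZBTB16 protein, 0 passed by edgeR, 0 by DESeq2 and 0 had an unadjusted p under 0.05. The corepressor NCOR1 had a log2 fold change of -0.37 ± 0.18 and ATP6AP2, the prorenin receptor, one of 0.27 ± 0.15.

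The 9 other FKBP genes tested had a log2 fold change between -0.28 (FKBP9) and 0.38 (FKBP10). Of them, 0 were past the threshold by edgeR, 0 by DESeq2 and 0 at an unadjusted p under 0.05. Over all genes tested, edgeR called 0.647%, DESeq2 593 of 10477, and 15% had an unadjusted p under 0.05. Of the TSC22 family, TSC22D1 had a log2 fold change of 0.068 ± 0.17 and TSC22D2 one of 0.15 ± 0.13, with 0 past the threshold by edgeR, 0 by DESeq2 and 0 at an unadjusted p under 0.05. For the axis that ERRFI1 acts on, 7 of 14 genes were tested and 0 passed by edgeR, while 1, EGFR, had an unadjusted p under 0.05 and was called by DESeq2. EGFR was at 578, 483, 438 and 546 CPM in HF-1 to HF-4, against 707, 724, 722 and 928 CPM in LF-1 to LF-4, without overlap, a log2 fold change of -0.59 ± 0.15 (edgeR adjusted p = 0.106). NRG1, a ligand of the ERBB receptors, was low, at 1.71 ± 0.80 CPM in HF, against 0.638 ± 0.870 CPM in LF (SD, n = 4 each), and did not pass (edgeR adjusted p = 0.449). LF-1 held most of the LF sum, at 1.93 CPM, and the log2 fold change was 1.55 ± 0.89 with that library and 2.996 without it (edgeR adjusted p = 0.134).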

How the data were processed

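The deposited mRNA table gives estimated counts and FPKM per transcript and library, per the file headers, and the authors' own log2 fold change and p-value, which were not used for any result. In all 48592 rows the log2 column lay within 0.01 of the log ratio of the groups' mean FPKM, a mean of 0 set to 0.001. The submitters' processing notes list Bowtie2 2.2.8 and TopHat2 2.1.1, with no role given. The quantifier, genome build, annotation and strandedness were not stated in the sources used, so reads of antisense partners cannot be told apart. The lncRNA table carries no symbols and was not used.

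Estimated counts were summed per symbol, ignoring case (13213 symbols), and rounded. The 2137 rows without a symbol held 0.839% to 0.965% of counts and were left out of the sums. HF and LF were compared with edgeR 4.0.16 (R 4.3.3), by the quasi-likelihood test with TMM, filterByExpr and Benjamini-Hochberg adjustment over all genes or transcripts tested, at 0.05. Log2 fold changes are HF over LF. SE was derived from the F statistic. The script was tested on simulated data. Totals of 12696240 to 30836178 counts set the precision. The quantifier's sharing of reads adds error that counts do not show.

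Members and lists were chosen with earlier results of these data known. Named genes are the 7 members with their rows, from each list up to 4 called genes with the largest absolute log2 fold change (the 2 of lowest p where fewer than 2 were called), and the genes most like ZBTB16. Others were chosen after their values were seen. Alternatives were DESeq2 1.42.0 and its size factors, no count filter, limma 3.58.1 on log2(FPKM + 1) for genes averaging 0.5 FPKM or more, a block for the replicate number, a term for W-described transcripts, and leaving out each library. The adipocyte sum without PNPLA2 was added after seeing the data. Chromosome names come from the RefSeq table of IASCAAS_PekinDuck_T2T.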

Additional observations from a re-analysis of the deposited data

Results flagged for a closer look

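Among 96 groups of 4 libraries tested for a library far from the other 3, 6 stood out, where chance gives about 5%. Concerning the 7 genes, the FKBP5 model XM_027444696.1 was at 4.73 FPKM in LF-4, with the other LF libraries between 1.18 and 1.36 FPKM. The TSC22D3 model XM_027465048.1 was at 113.7 FPKM in LF-2, with the others between 85.3 and 90.1 FPKM. Elsewhere, EGFR was at 928 CPM in LF-4 (others 707 to 724 CPM), NRG1 at 1.93 CPM in LF-1 (others 0.041 to 0.303 CPM) and SCNN1A at 0.835 CPM in LF-3 (others 0.437 to 0.483 CPM). PM20D2 was at 1.26 CPM in HF-3, against 12.9 to 15.1 CPM in the other HF libraries. It was named because it varied like ZBTB16 within groups, and HF-3 was the lowest HF library for ZBTB16. Nothing is read from that shared library, since the choice favours it.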

How the results depend on the processing

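Leaving out single libraries moved the 68 genes called to between 2 (without HF-1) and 92 (without LF-4), and to 6 (HF-4 left out), 14 (HF-3), 19 (LF-3) and 30 (LF-1). It moved the 4 transcripts called to between 0 and 35 (without LF-4), and the 3 targets called to between 1 and 4. DESeq2 called 593 genes and 11 targets. The term for W-described transcripts, which sets HF against LF-4 alone, gave 128 genes, and log2 fold changes of -3.49 for FKBP5, -1.51 for KLF9, 0.021 for NR3C1 and 0.050 for FKBP9, a change of sign for the last pair. Limma gave -1.67 for FKBP5. Without a count filter 0 transcripts were called, by edgeR. TSC22D1 ran from -0.051 (without LF-4) to 0.147 (without LF-3) over single libraries left out, with -0.00025 without HF-4, and was 0.495 with the W term. The log2 fold change of ZBTB16 was -3.98 with the W term. Whether any of the 7 genes passed with that term is not given, since LF-4 alone stands for LF there. In the settings besides that term and libraries left out, ZBTB16 was past the threshold each time, from -3.37 to -2.70. FKBP5 and HSD11B1 were past it by DESeq2 alone among those settings. These settings called from 9 (replicate block) to 593 (DESeq2, of 10477 tested) genes in all. The 7 genes were chosen by this contrast, so nothing is read from their passing. Of 98 values for the 7 genes, 94 moved by less than the spread between replicates. The cause was not tested.

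The replicate numbers share no stated source. Deviations of same-numbered libraries correlated over 0.1 in 1 of 4 pairs (from -0.286 to 0.105), and 0 of 4 HF libraries correlated best with their own number. With the replicate block edgeR called 9 genes, 1 target and 0 transcripts.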
